A study of Mus musculus with 18 samples.

Results

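The 8 genes described here encode CC chemokines, small secreted proteins that attract white blood cells. They were chosen by gene symbol, with earlier results of these data known, and are 8 of the 56691 genes in the deposited table. These are Ccl2, Ccl7, Ccl3, Ccl4, Ccl5, Ccl6, Ccl9 and Ccl24. Their RNA was measured by sequencing liver RNA of C57BL/6 mice, all wild-type, with 6 libraries in each of 3 groups. Sham mice were anesthetized and had a laparotomy without clamping. IR mice had hemostatic clips on the portal triad for 1 h, which cut the blood supply of the median and left lobes, about 70% of the liver, followed by 6 h of reperfusion. IR-Ori mice had the same ischemia and reperfusion and received oridonin, an ent-kaurane diterpenoid isolated from Isodon rubescens. The sources used here give neither the age of the mice nor the lobe that was sampled, nor the dose, route and time of oridonin. Nor do the labels state that every library is from its own animal, and p-values therefore measure only the spread among these samples, which may be technical.

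CC chemokines carry a pair of adjacent cysteines near the start of the mature protein, and act on G protein-coupled receptors of the CCR family. Most ligands bind several receptors and most receptors bind several ligands. Ccl2 and Ccl7 are ligands of Ccr2, the receptor through which monocytes leave the bone marrow and enter inflamed tissue. Ccl3 and Ccl5 act on Ccr1 and on further receptors. Ccl6 and Ccl9 are rodent chemokines that act on Ccr1, a receptor of neutrophils and macrophages, and Ccl24 is an eotaxin that attracts eosinophils through Ccr3. In the liver such ligands are made by Kupffer cells (the resident macrophages), by endothelial and stellate cells, by hepatocytes under stress and by incoming leukocytes.

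The sequences below, of 7 of the genes, show what they share and how they differ at the codons that name the family. Each line is a stretch of 36 bases of the coding sequence in GENCODE M21, with the codons of the adjacent cysteines in capitals.
Ccl2: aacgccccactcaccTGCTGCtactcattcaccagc
Ccl7: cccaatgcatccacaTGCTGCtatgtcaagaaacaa
Ccl4: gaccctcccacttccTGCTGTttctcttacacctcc
Ccl5: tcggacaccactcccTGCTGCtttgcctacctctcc
Ccl6: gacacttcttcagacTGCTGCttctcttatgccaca
Ccl9: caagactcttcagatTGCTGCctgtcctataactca
Ccl24: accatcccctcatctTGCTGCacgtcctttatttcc
The pair was written TGCTGC in 6 of these 7 genes and TGCTGT in Ccl4. Ccl24 held 2 such pairs, and the last is shown. In alignments of the whole coding sequences, Ccl3 and Ccl4 matched in 68.4% of columns, Ccl6 and Ccl9 in 65.1% and Ccl3 and Ccl5 in 62.5%. The lowest of the 28 pairs was 41.3%, between Ccl2 and Ccl5. Columns with a gap count as unmatched, so pairs of unequal length score lower. Ccl2 has 447 coding bases, against 276 in Ccl5 and 294 in Ccl7. The longest run of identical bases between any 2 of the transcripts was 25, between Ccl6 and Ccl9. Ccl2 and Ccl7, which share a run of 23 bases, matched in 47.99% of the columns, gaps included.

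The genes lie in clusters, by the positions of the deposited table (GRCm39). Ccl2 (ENSMUSG00000035385, chromosome 11, 81926397 to 81928279, plus strand) ends 8258 bp before Ccl7 (ENSMUSG00000035373, 81936538 to 81938351, plus strand). A gap of 1478252 bp separates Ccl7 from Ccl5 (ENSMUSG00000035042, 83416604 to 83421344, minus strand), the first of 5 members within 138906 bp. The next are Ccl9 (ENSMUSG00000019122, 83463745 to 83469462) and Ccl6 (ENSMUSG00000018927, 83478708 to 83483913), both on the minus strand and 9245 bp apart. Ccl3 (ENSMUSG00000000982, 83538670 to 83540181, minus strand) lies 13228 bp from Ccl4 (ENSMUSG00000018930, 83553410 to 83555509, plus strand). Ccl24 (ENSMUSG00000004814, 135598791 to 135601903, minus strand) is on chromosome 5. All 8 are protein-coding. Genes of the opposite strand overlap 3 of them, and the sources used here do not say whether counting used strand. The gene over Ccl3 (ENSMUSG00000120024) had 0 to 17 counts in a library beside 0 to 25 of Ccl3, so the values of Ccl3 are uncertain. E230016K23Rik, over Ccl6, had 0 to 3 counts, and Gm17268, over Ccl2, had 0.

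Promoters were given for Ccl3, Ccl6 and Ccl9 (RefSeq, GRCm38.p6, an older build than that of the values). They are shown because Ccl6 and Ccl9 are neighbours of similar coding sequence, of which Ccl6 passed the test between groups and Ccl9 did not. Each line holds the 250 bases before the start of the gene, at chr11:83593088-83593337 for Ccl6, chr11:83578637-83578886 for Ccl9 and chr11:83649379-83649628 for Ccl3, all on the minus strand. Capitals mark matches to the motifs searched.
Ccl6: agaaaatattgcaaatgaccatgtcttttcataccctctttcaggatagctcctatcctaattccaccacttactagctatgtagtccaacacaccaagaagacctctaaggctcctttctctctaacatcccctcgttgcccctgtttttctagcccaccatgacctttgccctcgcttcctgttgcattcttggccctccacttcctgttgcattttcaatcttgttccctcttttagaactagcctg
Ccl9: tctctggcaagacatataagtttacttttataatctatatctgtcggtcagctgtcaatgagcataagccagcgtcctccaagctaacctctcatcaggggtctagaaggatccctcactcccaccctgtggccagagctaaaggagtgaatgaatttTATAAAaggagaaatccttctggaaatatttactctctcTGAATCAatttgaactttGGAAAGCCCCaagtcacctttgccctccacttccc
Ccl3: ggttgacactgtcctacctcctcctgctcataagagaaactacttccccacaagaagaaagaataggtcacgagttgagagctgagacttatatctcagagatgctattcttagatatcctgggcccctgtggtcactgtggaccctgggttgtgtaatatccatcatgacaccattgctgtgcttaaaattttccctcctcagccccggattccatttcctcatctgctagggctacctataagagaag
The motifs searched, on both strands except the last, were the NF-kB motif, AP-1 (TGANTCA), CRE (TGACGTCA), C/EBP (TTGCNNCAA), STAT (TTCNNNGAA), PU.1 (GAGGAAGT), the heat shock element (GAANNTTC) and the TATA box (TATAAA). The Ccl9 promoter held a TATA box 92 to 87 bases before the start, an AP-1 match 53 to 47 bases before it and an NF-kB match 35 to 26 bases before it on the other strand, and none of these matches overlap. Ccl6 and Ccl3 held none of the 8 motifs in these letters. Of 32851 promoters of 300 bases in the same table, 8.46% held the NF-kB motif, 7.81% AP-1, 8.32% the TATA box, 1.79% CRE, 2.08% C/EBP, 8.30% STAT, 3.20% PU.1 and 7.86% the heat shock element. The best local alignment of the Ccl6 and Ccl9 promoters matched 16 of 17 bases, at 59 to 43 bases before the start of Ccl6 and 18 to 2 bases before that of Ccl9. The promoters of Ccl2, Ccl4, Ccl5, Ccl7 and Ccl24 are not shown.

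Libraries held 12449529 to 19798188 counts. Mitochondrially encoded genes took 6.52 to 42.9% of the counts, and this share varied more within the groups than between them. The sham libraries had a mean share of 21.9 ± 12.9%, the IR libraries of 19.2 ± 12.99% and the IR-Ori libraries of 27.1 ± 6.60% (SD, n = 6 each). It was below 15% in sham 1, 3 and 4, IR 4, 5 and 6 and IR-Ori 5. Levels below are the authors' FPKM, fragments per kilobase of exon scaled to the total count of a library, which can be compared between genes, and their library total includes the mitochondrial counts. Fold changes and p-values come from edgeR on the counts, adjusted over the 14595 genes tested, with a threshold of 0.05. All 8 members passed the filter on low counts, Ccl7 through its counts in IR alone. Ccl4 reached the cut in 5 IR, 1 sham and 0 IR-Ori libraries, so it too passed mainly through IR. Both are among the members counted as called below. Counts were few for Ccl3 (136 in all 18 libraries), Ccl4 (172), Ccl5 (205) and Ccl24 (209), and many for Ccl9 (14855).

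After ischemia and reperfusion 4 of the 8 members were higher than in sham, and in the libraries with oridonin these 4 were lower than in IR. Ccl2, Ccl7, Ccl4 and Ccl6 rose by 4.13- to 15.9-fold in IR against sham, and stood 3.43- to 13.9-fold lower in IR-Ori than in IR. Ccl3, Ccl5, Ccl9 and Ccl24 did not pass the test in either comparison. In IR against sham 5.48% of all genes tested were called higher, beside 4 of 8 members, and in IR-Ori against IR 2.97% were called lower, beside 4 of 8. The members were chosen with earlier results of these data known, so these counts beside the shares are a description and no test. Of 13 further CC ligands 3 were tested, and 0 were called in either comparison. The median log2 fold change of the 8 was 1.69 in IR against sham and -1.54 in IR-Ori against IR, beside medians of all genes of 0.0032 and -0.00017. Both comparisons use the same 6 IR libraries, so they are not independent. Since the tissue was sequenced in bulk, more cells of a type and more RNA per cell cannot be told apart.

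**Figure D1:**
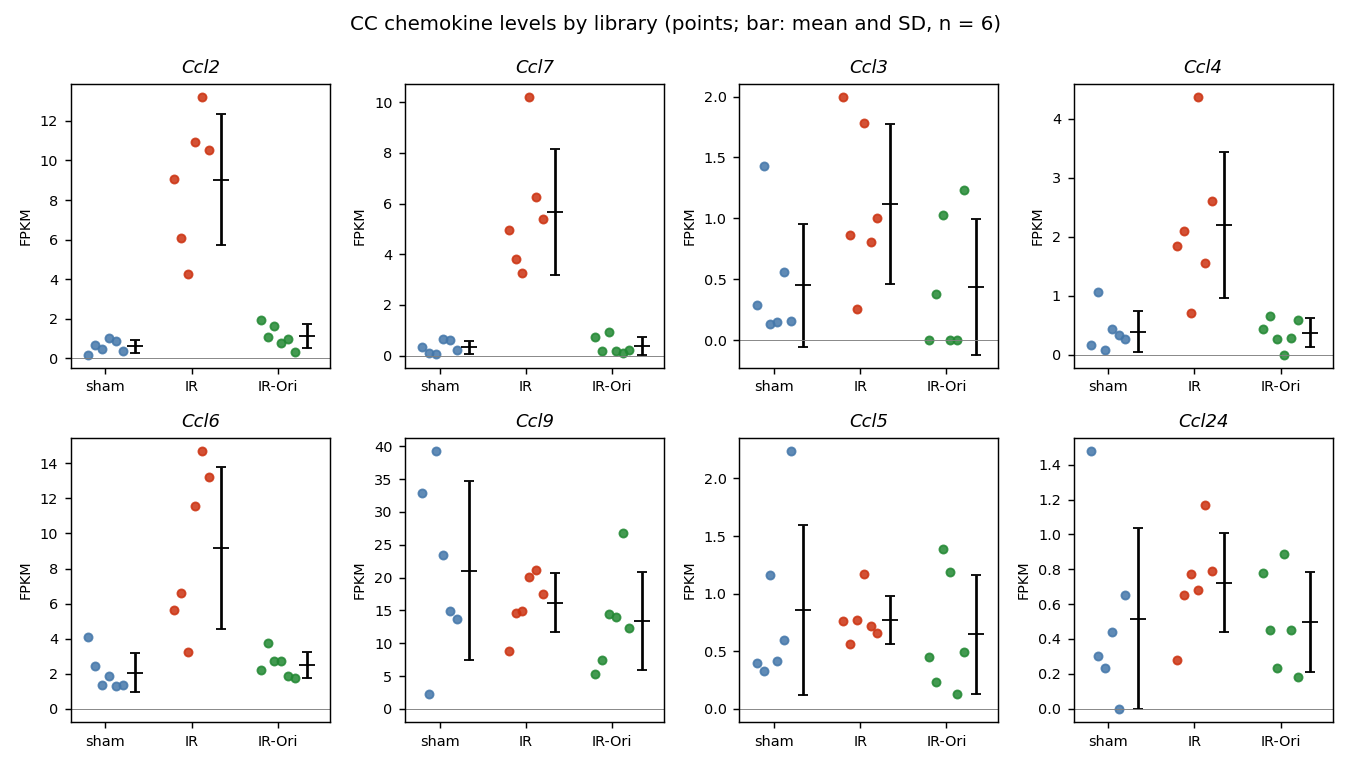
FPKM of the 8 CC chemokines in each library (points), with the mean and SD of each group beside them (n = 6); the vertical scale differs between panels. The 6 IR libraries lie above all 6 sham libraries for Ccl2 and Ccl7, while Ccl9 reaches 39.31 FPKM in sham and 21.13 in IR.

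Ccl2, also known as monocyte chemoattractant protein, is the main ligand of Ccr2. It stood at 0.19 FPKM in the lowest, 0.59 in the median and 1.01 in the highest sham library. In IR the lowest library was at 4.29, the median at 9.81 and the highest at 13.23. In IR-Ori the values were 0.34, 1.03 and 1.96. The IR libraries therefore lay above all libraries of both other groups, while IR-Ori and sham overlapped. Mean levels were 0.605 ± 0.312, 9.03 ± 3.31 and 1.13 ± 0.592 (SD, n = 6 each). Ccl2 rose by a log2 fold change of 3.85 ± 0.42 in IR against sham (SE; edgeR adjusted p = 0.000107), the smallest p but one of all 14595 genes tested. It was lower in IR-Ori than in IR by a log2 fold change of -2.95 ± 0.40 (adjusted p = 0.00082).

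Ccl7, the neighbour of Ccl2 and another monocyte attractant, was also highest in IR. Its lowest, median and highest FPKM were 0.06, 0.28 and 0.65 in sham. They were 3.26, 5.19 and 10.23 in IR and 0.08, 0.19 and 0.91 in IR-Ori. As for Ccl2, no sham or IR-Ori library reached the lowest IR library. Mean levels were 0.333 ± 0.257 for sham, 5.66 ± 2.49 for IR and 0.378 ± 0.346 for IR-Ori libraries (SD, n = 6 each). The log2 fold change was 3.99 ± 0.55 for IR against sham (edgeR adjusted p = 0.000585) and -3.80 ± 0.54 for IR-Ori against IR (adjusted p = 0.00128). Outside IR few counts lay behind these levels, 1 to 9 in sham and 1 to 12 in IR-Ori libraries. Its ratio to Ccl2 had a median of 0.619 in sham, of 0.588 in IR and of 0.302 in the IR-Ori libraries.

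Ccl4 and Ccl3, also called macrophage inflammatory proteins 1 beta and 1 alpha, are made by activated macrophages and lymphocytes. Ccl4 was at 0.08 FPKM in the lowest, 0.30 in the median and 1.07 in the highest sham library. In IR it was at 0.71, 1.98 and 4.38, and in IR-Ori at 0, 0.365 and 0.66. One sham library, sham 2, reached into the range of IR, and 35 of the 36 pairs of an IR and a sham library had the higher value in IR. All 6 IR-Ori libraries were below all 6 IR libraries. IR-Ori 4 had 0 counts of Ccl4, which allows up to 0.326 FPKM (3 counts, counting error only). Ccl4 rose by a log2 fold change of 2.46 ± 0.59 (edgeR adjusted p = 0.0155) and was lower in IR-Ori (log2 fold change -2.48 ± 0.59, adjusted p = 0.0278). The second call was lost when IR 4, IR 6, IR-Ori 1, IR-Ori 3 or IR-Ori 6 was left out, with adjusted p up to 0.0849 and a log2 fold change of -2.19 to -2.70 over the 12 libraries left out in turn.

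Ccl3 was less certain. Its FPKM ran from 0.13 over a median of 0.225 to 1.43 in sham, from 0.26 over 0.93 to 2.00 in IR and from 0 over 0.19 to 1.23 in IR-Ori. The 3 groups overlapped, and 3 IR-Ori libraries (1, 4 and 5) had 0 counts, which allows up to 0.252 to 0.282 FPKM. The IR value was the higher in 30 of 36 pairs with sham. The log2 fold change was 1.34 ± 0.83 for IR against sham (95% interval -0.38 to 3.07; edgeR adjusted p = 0.344) and -1.31 ± 0.83 for IR-Ori against IR (-3.04 to 0.43; adjusted p = 0.333). Neither passed the test, and the intervals also hold a rise and a fall as large as those of Ccl4. Within the libraries whose mitochondrial share was under 15%, 3 of sham and 3 of IR, Ccl3 did pass (log2 fold change 2.49 ± 0.64, adjusted p = 0.0423).

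Ccl6 and Ccl9 are chemokines of macrophages that act on Ccr1, and are neighbours whose aligned coding sequences match in 65.1% of columns. Ccl6 was at 1.28 FPKM in the lowest, 1.63 in the median and 4.12 in the highest sham library. The values were 3.24, 9.09 and 14.71 in IR and 1.74, 2.49 and 3.75 in IR-Ori. Only IR 3 overlapped with the other groups, by 1 pair of 36 with each. Within IR, Ccl6 was higher in IR 4, 5 and 6 (11.55 to 14.71 FPKM), the libraries with a mitochondrial share below 15%, than in IR 1, 2 and 3 (3.24 to 6.63). Ccl6 rose by a log2 fold change of 2.05 ± 0.37 (edgeR adjusted p = 0.00297), from 2.08 ± 1.10 to 9.16 ± 4.63 FPKM (SD, n = 6 each), and was lower in IR-Ori (log2 fold change -1.78 ± 0.36, adjusted p = 0.0130) at 2.52 ± 0.742. Limma on log2(FPKM + 1) without a filter did not call this second difference (adjusted p = 0.0671). Nor did edgeR with the replicate number in the model (adjusted p = 0.0512) or within libraries at or above 15% mitochondrial share (adjusted p = 0.300).

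Ccl9 had the highest mean of the 8 members in each group, and no comparison of its groups passed the test. It ran from 2.32 over a median of 19.1 to 39.31 FPKM in sham, from 8.82 over 16.2 to 21.13 in IR and from 5.34 over 13.2 to 26.74 in IR-Ori. Sham held both the lowest library, sham 2, and the highest, sham 3. The log2 fold change was -0.46 ± 0.44 for IR against sham (95% interval -1.38 to 0.47; edgeR adjusted p = 0.578) and -0.18 ± 0.44 for IR-Ori against IR (-1.11 to 0.74; adjusted p = 0.823). A change of Ccl9 as large as that of Ccl6 lies outside these intervals. The ratio of Ccl6 to Ccl9 in FPKM had a median of 0.0925 over the sham libraries (0.0343 to 1.06), 0.605 over the IR libraries (0.217 to 0.754) and 0.194 over the IR-Ori libraries (0.0699 to 0.501). It was given no test, since the pair was chosen with these levels known.

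**Figure D2:**
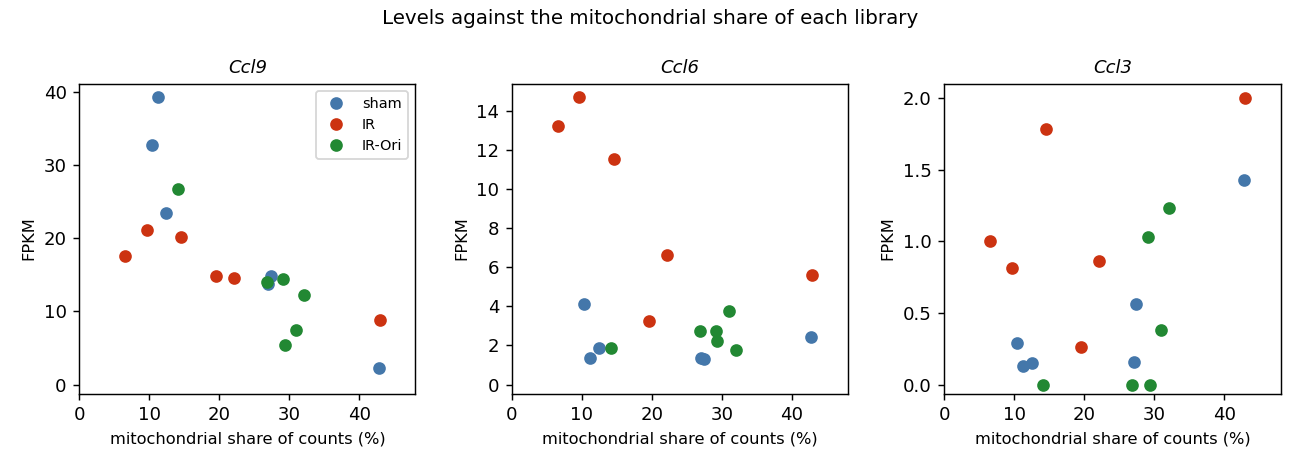
FPKM of Ccl9, Ccl6 and Ccl3 in each library (1 point per library, coloured by group) against the share of its counts from mitochondrial genes. Ccl9 is highest, 39.31 FPKM, in the sham library at 11.2% and lowest, 2.32 FPKM, in that at 42.8%.

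Ccl9 fell as the mitochondrial share of a library grew. With the groups in the model, its log2 slope was -0.57 ± 0.13 for each 10 percentage points of mitochondrial share (SE; edgeR adjusted p = 0.00218), and that of Ccl3 was 0.69 ± 0.26 (adjusted p = 0.0399). Sham 2 (14 counts of Ccl3) and IR 1 (25 counts), the libraries of the largest share, were the highest of their groups for Ccl3. The slope without them was not tested, and the gene that overlaps Ccl3 leaves its values uncertain. The other 6 members did not pass, with slopes of 0.05 ± 0.14 for Ccl2, -0.0022 ± 0.24 for Ccl7, 0.28 ± 0.21 for Ccl4, -0.15 ± 0.13 for Ccl6, 0.16 ± 0.24 for Ccl5 and -0.39 ± 0.23 for Ccl24. Such a dependence was common. Of 14579 nuclear genes, 22.9% were lower and 19.6% higher with the share. With the share as a covariate, the same counts of 4 members higher in IR and 4 lower in IR-Ori were found, and Ccl9 was at -0.29 for IR against sham.

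The calls differed between libraries of low and of high mitochondrial share, for all genes as for members. Among libraries under 15%, 1056 of all genes and 5 members were higher in IR than in sham, the 4 above and Ccl3. Among libraries at or above 15%, 85 of all genes and 2 members were called higher. These members were Ccl2 (log2 fold change 3.39, adjusted p = 0.0138) and Ccl7 (3.66, adjusted p = 0.0261), while Ccl6 (1.61, adjusted p = 0.0996) and Ccl4 (1.52, adjusted p = 0.396) were not called. For IR-Ori against IR, only libraries at or above 15% could be compared, 5 against 3, since 1 IR-Ori library lay below. There edgeR called 0 members lower (3 at an unadjusted p under 0.05), and Ccl2 stood at -2.52 (adjusted p = 0.0859), Ccl7 at -3.17 (adjusted p = 0.0680) and Ccl6 at -0.96 (adjusted p = 0.300), while Ccl4 did not pass the filter. In that subset 8 genes of all were called lower, against 434 with all libraries.

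Ccl5, or RANTES, is made chiefly by T cells and NK cells. Its FPKM ran from 0.33 over 0.51 to 2.24 in sham, from 0.56 over 0.74 to 1.17 in IR and from 0.13 over 0.47 to 1.39 in IR-Ori. The highest library was sham 6, and the groups overlapped throughout. The log2 fold change was -0.24 ± 0.55 for IR against sham (95% interval -1.37 to 0.90; edgeR adjusted p = 0.838) and -0.18 ± 0.56 for IR-Ori against IR (-1.35 to 0.99; adjusted p = 0.868). The 15 markers of T cells and NK cells were sparse too, with a summed level of 2.54 to 8.88 FPKM in sham libraries, 2.95 to 5.41 in IR libraries and 2.72 to 5.81 in IR-Ori libraries. Of the 4 tested, edgeR and DESeq2 called 0 in each comparison, and 1 had an unadjusted edgeR p under 0.05, in IR-Ori against sham.

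Ccl24, or eotaxin-2, is made by macrophages and attracts eosinophils. It ran from 0 over 0.37 to 1.48 FPKM in sham, from 0.28 over 0.725 to 1.17 in IR and from 0.18 over 0.45 to 0.89 in IR-Ori. Sham 5 had 0 counts, which allows up to 0.166 FPKM, and sham 1 was the highest of all libraries. The log2 fold change was 0.33 ± 0.57 for IR against sham (95% interval -0.87 to 1.53; edgeR adjusted p = 0.775) and -0.46 ± 0.58 for IR-Ori against IR (-1.68 to 0.75; adjusted p = 0.641). Ccr3, its receptor on eosinophils, had a mean of 0.07 FPKM in sham, against 0.01 (IR) and 0.03 (IR-Ori), and was not tested. Among markers of eosinophils, basophils and mast cells Epx and Ear1 were listed at 0 in 17 and 18 of the 18 libraries. Of 2 tested genes 1, Ear2, rose in IR (1.24 ± 0.35, edgeR adjusted p = 0.0374), beside 5.48% of all genes tested.

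**Figure D3:**
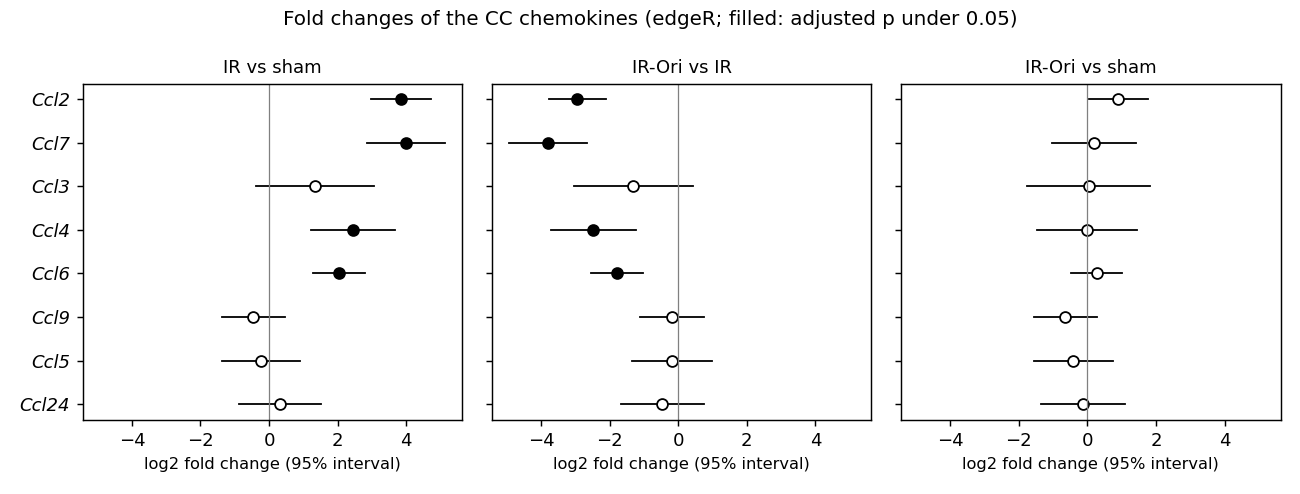
Log2 fold changes of the 8 members from edgeR in the 3 comparisons, with 95% intervals; filled points have an adjusted p under 0.05. Ccl2, Ccl7, Ccl4 and Ccl6 are filled to the right of 0 in IR against sham and to the left in IR-Ori against IR, and no point is filled in IR-Ori against sham.

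Against sham, the IR-Ori libraries showed no call. In this comparison 0% of all genes tested were called higher and 0% lower by edgeR (923 and 530 genes at an unadjusted p under 0.05), so a count of 0 of 8 members says nothing particular of them. DESeq2 called 23 genes higher and 2 lower, and limma 0. Ccl2 was nearest to the threshold, with a log2 fold change of 0.90 ± 0.41 (95% interval 0.03 to 1.76), an unadjusted p of 0.0422 and an adjusted p of 0.4998, and 28 of 36 pairs were higher in IR-Ori. At an unadjusted p under 0.05 edgeR and DESeq2 each found 1 member higher and limma found 0. The other members had log2 fold changes of 0.27 ± 0.36 for Ccl6, 0.19 ± 0.59 for Ccl7, 0.04 ± 0.86 for Ccl3, -0.02 ± 0.70 for Ccl4, -0.13 ± 0.59 for Ccl24, -0.42 ± 0.55 for Ccl5 and -0.64 ± 0.44 for Ccl9. The intervals of Ccl3 (-1.76 to 1.84), Ccl4 (-1.47 to 1.44) and Ccl7 (-1.04 to 1.42) allow a difference of more than 2-fold either way. The same holds for Ccl24 (-1.35 to 1.09). Those of Ccl2 and Ccl6 (-0.49 to 1.02) allow it upward, and those of Ccl5 (-1.57 to 0.74) and Ccl9 (-1.57 to 0.29) downward. These libraries therefore do not show equal levels for any member.

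Overlap between the groups was also counted, without a model and as a description, since the members were chosen with earlier results known. In IR against sham 2 of 8, Ccl2 and Ccl7, had all IR libraries above all sham libraries in FPKM, beside 2.04% of all genes tested. In IR-Ori against IR 3 of 8, Ccl2, Ccl7 and Ccl4, had all IR-Ori libraries below all IR libraries, beside 1.1%. Ccl6 missed by 1 pair of 36 in each comparison.

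The order of the members changed with the group. In sham, Ccl9 (21.1 ± 13.6 FPKM) was followed by Ccl6 (2.08 ± 1.10), and then by Ccl5, Ccl2, Ccl24, Ccl3, Ccl4 and Ccl7, with means of 0.858 down to 0.333, each differing from the next by less than either SD. In IR, Ccl9 (16.2 ± 4.48) was followed by Ccl6 (9.16 ± 4.63) and Ccl2 (9.03 ± 3.31), which did not differ beyond their spread, then by Ccl7 (5.66 ± 2.49), Ccl4 (2.202 ± 1.24), Ccl3 (1.12 ± 0.652), Ccl5 (0.773 ± 0.209) and Ccl24 (0.723 ± 0.286). In IR-Ori the order was Ccl9 (13.4 ± 7.49), Ccl6 (2.52 ± 0.742), Ccl2 (1.13 ± 0.592) and then Ccl5, Ccl24, Ccl3, Ccl7 and Ccl4, with means of 0.647 down to 0.375 and overlapping ranges. The summed FPKM of the 8 was 26.3 in sham (8.69 to 42.81), against 44.9 in the IR libraries (28.21 to 60.88) and 19.4 in the IR-Ori libraries (11.9 to 30.52). Ccl2 made up 20.03% of that sum in IR libraries, against 3.28% (sham) and 6.73% (IR-Ori). Ccl9 made up 37.2% of it in IR libraries, against 72.2% (sham) and 65.3% (IR-Ori).

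**Figure D4:**
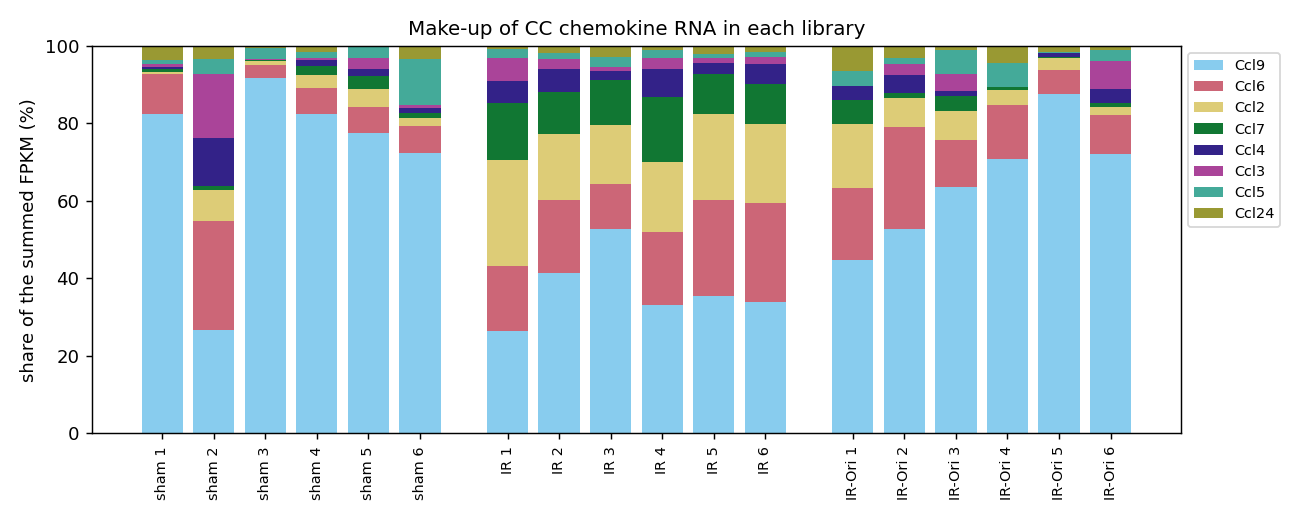
Share of each member in the summed FPKM of the 8 CC chemokines, 1 bar per library. Ccl9 takes 26.4 to 52.9% in the IR libraries and 44.9 to 87.6% in IR-Ori; in sham 2, the library with the second largest mitochondrial share, it takes 26.7%, below the other 5 sham libraries.

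Of 13 further CC ligands, 3 passed the filter, Ccl21a, which guides lymphocytes to lymph nodes (397 counts over all 18 libraries), Ccl25, a thymus and gut chemokine (3162), and Ccl27a, a skin chemokine (3007). The other 10 had 0 to 52 counts. By edgeR 0 were called in IR against sham and 0 in IR-Ori against IR, with 1 at an unadjusted p under 0.05 in each, Ccl27a. DESeq2 called 1 in the first and 0 in the second, and limma 0 in both. Ccl27a had a mean of 2.76 FPKM in IR, against 5.96 (sham) and 5.38 (IR-Ori), and its log2 fold change was -1.16 ± 0.40 in IR against sham (adjusted p = 0.0824) and 0.97 ± 0.40 in IR-Ori against IR (adjusted p = 0.151). The neighbours of Ccl7 on chromosome 11 were sparse, with 15 counts for Ccl11, 19 for Ccl12 and 9 for Ccl8 over all 18 libraries, beside 451 for Ccl7. Ccl26 was listed at 0 throughout.

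Of the receptors, Ccr1 and Ccr2 rose. Of 12 CC receptor genes (Cx3cr1 included), 4 passed the filter, and these 2 were higher in IR than in sham and lower in IR-Ori than in IR. Of all genes tested, 5.48% were called higher in the first comparison and 2.97% lower in the second. Ccr1, the receptor of Ccl3, Ccl5, Ccl6 and Ccl9, was at 1.35 to 5.47 FPKM in IR libraries, against 0.04 to 0.25 (sham) and 0.03 to 1.01 (IR-Ori). Its IR libraries lay above all others, and it rose by a log2 fold change of 4.28 ± 0.63 (edgeR adjusted p = 0.00085) and was lower in IR-Ori (log2 fold change -2.34 ± 0.56, adjusted p = 0.0278). Ccr2, the receptor of Ccl2 and Ccl7, was at 0.89 to 3.22 FPKM in IR libraries, against 0.11 to 0.99 (sham) and 0.34 to 0.84 (IR-Ori). Only 1 of 36 pairs of IR and sham libraries was out of order, and all IR-Ori libraries lay below all IR libraries. Ccr2 rose by 1.84 ± 0.44 (adjusted p = 0.0152) and was lower in IR-Ori (log2 fold change -1.80 ± 0.44, adjusted p = 0.0287).

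Both falls in IR-Ori were near the threshold. The call of Ccr1 was lost without IR 4, IR 5 or IR-Ori 1 and that of Ccr2 without IR 4, IR 5, IR-Ori 1, IR-Ori 2, IR-Ori 3 or IR-Ori 6, with adjusted p up to 0.0849 for each. Cx3cr1, a receptor of patrolling monocytes, did not pass in IR against sham (1.03 ± 0.48, edgeR adjusted p = 0.201).

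**Figure D5:**
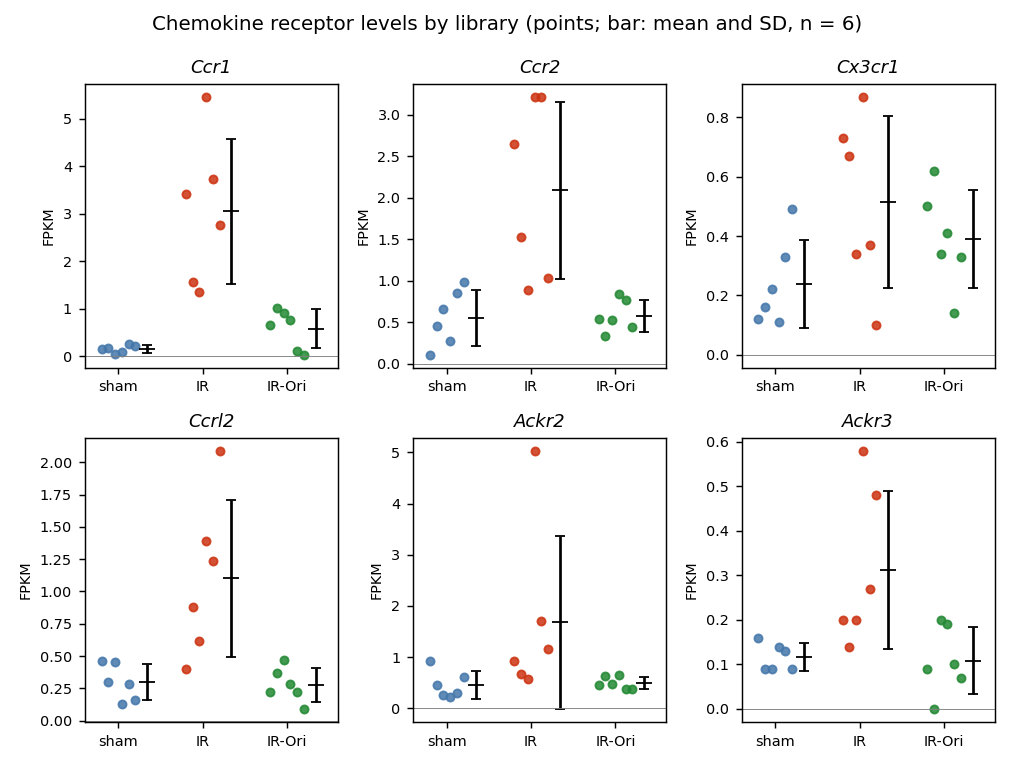
FPKM of 3 chemokine receptors (upper row) and 3 atypical receptors (lower row) in each library (points), with the mean and SD of each group (n = 6); the vertical scale differs between panels. Ccr1 reaches 0.25 FPKM in sham and starts at 1.35 in IR.

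Atypical receptors bind chemokines without G protein signalling and scavenge or present them. All 5 passed the filter, and 2 rose in IR, beside 5.48% of all genes tested. In IR-Ori against IR 1 was called lower, beside 2.97% of all genes. Ackr2, which takes up inflammatory CC chemokines such as Ccl2 and Ccl4, rose by a log2 fold change of 1.73 ± 0.48 (edgeR adjusted p = 0.0337), and did not pass in IR-Ori against IR (-1.65 ± 0.48, adjusted p = 0.0584). This rise leaned on IR 4, at 5.03 FPKM beside 0.58 to 1.71 in the other IR libraries. Without IR 4 it was 1.04 (adjusted p = 0.144), and the call was also lost without IR 5 or without sham 2, 3, 4 or 5. Ccrl2, which binds chemerin and is induced in activated leukocytes and endothelium, rose by 1.81 ± 0.43 (adjusted p = 0.0156) and was lower in IR-Ori (log2 fold change -1.92 ± 0.44, adjusted p = 0.0229). Its second call was lost without IR 4, IR 6, IR-Ori 1 or IR-Ori 6 (adjusted p up to 0.0665). Ackr1, Ackr3 and Ackr4 did not pass.

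Of 22 genes of receptor signalling, 2 rose in IR, the integrin chain Itgb2 (1.18 ± 0.27, edgeR adjusted p = 0.0131) and the phosphoinositide 3-kinase subunit Pik3r5 (1.26 ± 0.37, adjusted p = 0.0413). Of all genes tested 5.48% rose, so this count is near that share. In IR-Ori against IR edgeR called 0 of the 22 (6 at an unadjusted p under 0.05, 1 by DESeq2 and 0 by limma), beside 2.97% of all genes called lower. Pik3r5 lost its call without 8 of the 12 libraries in turn. Of 15 tested genes of proteolysis and of heparan sulfate, 6 rose and 1 fell in IR. Those that rose were Mmp13 (5.12 ± 1.00, adjusted p = 0.00497), Mmp8 (4.39 ± 0.81, adjusted p = 0.00353), Mmp12 (3.15 ± 0.72), Timp1 (3.04 ± 0.71), Mmp9 (1.88 ± 0.54) and Mmp14 (0.71 ± 0.21), all matrix metalloproteinases except Timp1, which inhibits them. Dpp4, the peptidase that shortens several chemokines at the amino end, fell by 0.65 on the log2 scale (adjusted p = 0.0479). The calls of Mmp9, Mmp14 and Dpp4 were lost in 8, 9 and 6 of the 12 fits that left out 1 library, and that of Mmp12 without IR 4. In IR-Ori against IR edgeR called only Mmp13 lower (-5.26 ± 1.02, adjusted p = 0.0107). Of the 15, 9 had an unadjusted edgeR p under 0.05, DESeq2 called 3 and limma 0. Mmp13 ran from 0.17 FPKM in IR 6 to 16.77 in IR 4, and it reached 0.29 in sham and 0.30 in IR-Ori.

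Medians of the summed levels of myeloid cell markers were also highest in IR. Over all 14 neutrophil markers the sum was 69.7 to 315.29 FPKM in IR libraries, against 4.39 to 26.9 (sham) and 7.99 to 65.17 (IR-Ori). S100a9, a calcium-binding protein of neutrophils, made up much of it, with means of 71.7 FPKM in IR, 5.69 in sham and 16.05 in IR-Ori. Of the 14, 6 did not pass the filter, which counts in IR alone can carry a marker past, so no count of calls is given for this list, and Mpo was listed at 0 in all 18 libraries. Of 12 tested markers of monocytes and recruited macrophages, 7 rose in IR, beside 5.48% of all genes tested, and 6 were lower in IR-Ori, beside 2.97%. This list holds 14 markers, and counts in IR alone can carry one past the filter here too, so these counts share that limit. Without Fn1, which hepatocytes make, the summed level of this list was 50.99 to 120.88 FPKM in IR libraries, against 19.11 to 62.04 (sham) and 15.91 to 44.92 (IR-Ori). Chil3, a lectin of monocytes, rose by 4.67 ± 0.57 (edgeR adjusted p = 0.00023) and was lower in IR-Ori (log2 fold change -4.60 ± 0.57, adjusted p = 0.00059). Ccr2 is itself on that list, and Mmp8 is on the neutrophil list.

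Of the 12 tested Kupffer cell markers, edgeR called 0 in each comparison, with 0 at an unadjusted p under 0.05 in IR against sham and 2 in IR-Ori against IR, where DESeq2 called 1. The summed levels of all 13 on the list overlapped, with 50.44 to 121.54 FPKM in sham libraries, 61.34 to 128.19 in IR libraries and 66.25 to 106.14 in IR-Ori libraries. Clec4f, their defining lectin, had a mean of 24.8 FPKM in sham, against 19.9 (IR) and 32.8 (IR-Ori). The list as a whole did not follow Clec4f. Its sums had a median of 84.5 FPKM (IR), beside 68.8 (sham) and 83.2 (IR-Ori). The median log2 fold change of the 12 tested was 0.15 in IR against sham, while IR-Ori stood at -0.16 against IR. Hepatocyte markers, which check the labelled tissue, summed to 19723 to 55419 FPKM, with 0 of 8 called by edgeR or DESeq2 and 0 at an unadjusted p under 0.05. Of 8 endothelial markers 3 rose in IR (Pecam1, Cdh5 and Lyve1), beside 5.48% of all genes tested. Of 9 tested stellate cell markers 1 rose (Pdgfrb), a count near that share. In IR against sham edgeR and DESeq2 called 0 markers of B cells (2 at an unadjusted p under 0.05), of dendritic cells (0) and of platelets and red cells (3). The summed level of the 9 platelet and red cell markers had a median of 197.6 FPKM (103.18 to 361.74) in IR, against 71.3 (26.91 to 266.67) in sham and 87.6 (67.91 to 108.46) in IR-Ori, and the groups overlapped. In IR-Ori against IR edgeR and limma called 0 of these (2 at an unadjusted p under 0.05) and DESeq2 2. Summed endothelial markers had medians of 38.1 FPKM in IR, 21.1 in sham and 27.5 in IR-Ori, and B cell markers of 6.96, 17.5 and 9.12. The part of these cell types in the levels of the 8 chemokines was not tested.

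Each member was also set beside the protein-coding genes whose levels were most like its own over the 18 libraries, by Pearson's r of log2 CPM, counts scaled to the library size. The libraries share the 3 groups, so r is given again within groups (after subtracting group means), as a description. Ccl2 was most like Ier3, an early response gene (r 0.95, within groups 0.67), the neutrophil chemokine Cxcl2 (0.95 and 0.71) and Acod1, which makes itaconate in macrophages (0.93 and 0.75). Ccl7 was most like the cystine transporter Slc7a11 (0.95 and 0.73), Plek (0.94 and 0.63) and Ccl2 (0.93 and 0.58). The genes nearest to Ccl6 were Emilin2 (0.96 and 0.90), Hilpda, a lipid droplet protein induced by hypoxia (0.94 and 0.81), and Ch25h, a cholesterol hydroxylase (0.93 and 0.78). Ccl4 was nearest to the chaperone Hspa1b (0.90 and 0.73), whose reads can be shared with its near-identical copy Hspa1a, and Ccl3 to Basp1 (0.84 and 0.79).

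Ccl9 had neighbours of another kind. Its 3 nearest genes were Cetn2, a centrin (r 0.97, within groups 0.98), Atp5o, a subunit of the mitochondrial ATP synthase (0.96 and 0.96), and Cd47 (0.96 and 0.96), so the likeness was as high within groups as over all libraries. Ccl5 (Evi2a, 0.69) and Ccl24 (Lyrm1, 0.76) had no gene above these values. Among the 8, the highest r within groups were 0.67 for Ccl3 with Ccl4 and 0.58 for Ccl2 with Ccl7, both pairs of neighbouring genes, and that of Ccl6 with Ccl9 was -0.0036.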

How the data were processed

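The 18 libraries were grouped by their labels into sham, IR and IR-Ori, 6 each. Libraries were made from 1 ug of total RNA, per the labels' protocols. Per the submitters' processing notes, cutadapt 1.9.1, HISAT2 2.2.1, the build GRCm39 and DESeq2 were used; the tool and annotation that gave the counts are not named there. The authors deposited whole-number counts per gene, unscaled, and FPKM. Counts divided by the table's exonic gene size and the library's total count gave back 100% of the authors' FPKM within 0.0051, so that total includes the 37 mitochondrial genes. The 2639 genes without a symbol kept their identifiers and stayed in the tests.

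Genes were tested on the deposited counts with edgeR 4.0.16 (R 4.3.3): filterByExpr with the group factor (minimum count 10, total 15; 14595 of 56691 genes), TMM scaling, and 1 robust quasi-likelihood fit to all 18 libraries (15 residual degrees of freedom; common coefficient of biological variation 0.398). Tests were two-sided F tests, with Benjamini-Hochberg adjustment within a comparison and a threshold of 0.05. SE is the log2 fold change over the square root of F. No 2 count columns were identical. The 8 members and all gene lists were chosen with earlier results of these data known. All members are described, with up to 4 genes of each other list with the smallest p in a comparison, other list genes by level, and the 3 tested protein-coding genes most correlated with a member (log2 CPM, prior count 2). Mmp9, Mmp14 and Dpp4 were named outside this rule, after their values were seen, to complete a count. Scripts were tested on simulated data. Alternatives were DESeq2 1.42.0, limma 3.58.1 on log2(FPKM + 1) or + 0.1 (genes with an FPKM of 1 in 6 libraries), other filters, scalings and fits, the mitochondrial share, and each library left out. Leaving out sham 2 and IR 1 together was chosen after seeing the data. Promoters came from RefSeq by symbol (3 of 8 members) and coding sequences from GENCODE M21 by symbol, and Biopython 1.88 aligned them. The coding window of 1 member and the values of 1 receptor are not reported here.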

Additional observations from a re-analysis of the deposited data

Results flagged for a closer look

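Of the 24 groups of 6 libraries, one for each member and condition, 3 held a library that stood apart by Dixon's test at the 95% level, and chance gives about 1 in 20. Sham 2 was highest for Ccl3 at 1.43 FPKM, beside 0.13 to 0.56 in the other 5 sham libraries, and highest for Ccl4 at 1.07, beside 0.08 to 0.44. Few counts lay behind these values, 14 of Ccl3 beside 2 to 6 and 9 of Ccl4 beside 1 to 5. Sham 2 had 42.8% of its counts from mitochondrial genes, and the part of that share was not tested for these libraries alone. IR 4 was highest for Ccl5 at 1.17 FPKM, beside 0.56 to 0.77 in the other 5 IR libraries. It had 14 counts of Ccl5, beside 9 to 12 in those libraries, and the smallest total of all libraries, 12449529 counts.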

How the results depend on the processing

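Ccl2, Ccl7, Ccl4 and Ccl6 kept their direction in both comparisons with IR under each alternative that tested them. The count of 4 members higher in IR than in sham was 2 within libraries of at least 15% mitochondrial share. The count of 4 lower in IR-Ori than in IR was 0 there, and 2 with the replicate block, where Ccl4 (adjusted p = 0.0567) and Ccl6 (0.0512) were lost. Replicate numbers did not pair the libraries (correlation of deviations -0.44 to 0.42, 6 of 18 pairs over 0.1, and 2 libraries nearest to their own number). The 6 pairs of IR with IR-Ori ran from 0.012 to 0.42, 4 of them over 0.1, which is a hint from the data and short of every pair. Limma without a filter lost Ccl6 in IR-Ori against IR (adjusted p = 0.0671). Without sham 2 and IR 1, both counts were 3, since Ccl4 no longer passed the filter. With only IR and IR-Ori in the fit, the count lower in IR-Ori was 3 for the same reason. The cause of these changes was not tested. Calls of other pathway genes were less stable, with 113 alternative values no longer past the threshold, 293 still past it and 0 of opposite sign.

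Members that were never called changed sign. In IR against sham, Ccl5 was at 0.0041 by limma without a filter, 0.0071 with the block, 0.25 under 15% mitochondrial share and -0.44 to 0.32 over libraries left out, and Ccl9 at 0.26 at or above 15%. In IR-Ori against IR, Ccl9 was at 0.14 with the share as a covariate and -0.49 to 0.0085 over libraries left out, and Ccl5 at 0.13 at or above 15% and -0.57 to 0.038. In IR-Ori against sham, Ccl3 was at -0.0011 by DESeq2, -0.040 by limma on log2(FPKM + 1) with and without a filter, -0.50 with + 0.1, -0.036 after quantile scaling, -0.15 with the covariate and -0.41 at or above 15%. Ccl4 was at 0.0026 without TMM and 0.11 with the block, Ccl7 at -0.030 after quantile scaling, and Ccl9 at 0.056 at or above 15%. Ccl24 was at 0.021 by limma without a filter, 0.048 with the block, 0.18 with the covariate and 0.56 at or above 15%. Over libraries left out, the ranges were -0.56 to 0.79 for Ccl3, -0.29 to 0.53 for Ccl4, -0.85 to 0.15 for Ccl5, -0.35 to 0.49 for Ccl7 and -0.40 to 0.52 for Ccl24.

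The counts over all genes moved more than those of members. The 800 genes higher in IR became 383, 395, 216 and 367 by limma (FPKM + 1, + 0.1, no filter, quantile), 449 with the block, 85 at or above 15%, and 439 at the lowest with 1 library left out. The 434 lower in IR-Ori became 916 by DESeq2, 87, 70, 50 and 142 by limma, 146 with only both groups, 131 with the block, 230 with the covariate, 8 at or above 15%, 1084 without sham 2 and IR 1, and 140 to 734 with 1 library left out. The 0 higher in IR-Ori than in sham became 23 by DESeq2. Depth limits Ccl3, Ccl4, Ccl5, Ccl7 and Ccl24, with few counts in some libraries.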
